A study of Mus musculus with 4 samples.

Results

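Costimulatory receptors of the CD28 family and receptors of the TNF superfamily were examined in mouse CD4+ T cells with and without Bfar. The genes were 10, chosen by symbol: Cd28 and Icos of the CD28 family, and Cd27, Fas, Tnfrsf1a, Tnfrsf1b, Tnfrsf4, Tnfrsf9, Tnfrsf18 and Tnfrsf25 of the TNF receptor superfamily. All 10 were found among the 17478 genes listed in at least 1 library. Bfar codes for an E3 ubiquitin ligase anchored in the membrane of the endoplasmic reticulum. The knockout group came from C57BL/6 mice labelled BFAR-/- whose protocol calls the deficiency conditional to T cells, and the control group from wild-type C57BL/6 mice. In both groups the mice were 6 to 8 weeks old, naive CD4+CD44loCD62Lhi cells were sorted from spleen and lymph nodes, and the cells were kept for 3 days with anti-CD3 and anti-CD28 under conditions that drive Th9 cells, helper T cells that secrete IL-9. Each group had 2 bulk RNA-seq libraries. The sources used here do not give the driver of the deletion or the exons removed.

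A T cell needs a second signal beside its antigen receptor. CD28 supplies it on naive cells, and ICOS takes over part of this role once a cell is activated. Several TNF receptors, among them OX40, GITR, 4-1BB, CD27 and TNFR2, bind TRAF adaptors and activate NF-kB, which prolongs division and survival. TNFR1, Fas and DR3 carry a death domain and can also recruit the machinery of apoptosis. Ligation of OX40 or of GITR is known to raise IL-9 production in mouse Th9 cultures. Anti-CD28 was part of the stimulus here, so CD28 was engaged in every culture.

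The libraries summed to 19321076 and 19058009 expected counts in the knockout group and to 19782923 and 19736182 in the wild-type group. Bfar itself had 8.45 and 7.79 CPM (counts scaled to the size of the library) in the knockout libraries, against 36.4 and 33.0 CPM in the wild-type libraries, so each library matched its label. The labels do not say that replicates came from separate mice, so the p-values cover the spread of these 4 libraries alone, and that spread may be technical. No batch is named, and one that followed genotype cannot be told apart from it. The T cell markers Cd4, Cd3e and Cd3g were abundant in all 4 libraries, with Cd4 at 702 and 671 CPM in knockout cells and 592 and 581 CPM in wild-type cells.

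Of the 10 receptor genes, 6 rose in knockout cells, 2 fell and 2 did not pass the test. By edgeR's quasi-likelihood test at an adjusted p under 0.05, 26.8% of the 12677 tested genes passed, 13.6% upward and 13.2% downward. The genes that rose were Tnfrsf9, Cd27, Tnfrsf1b, Cd28, Tnfrsf18 and Icos, by between 17.7% and 49.7%. Tnfrsf25 fell by 23.7%, and Tnfrsf4 fell by 7.37%. The median log2 fold change of the 10 genes was 0.27, against -0.0024 for all tested genes. The knockout and wild-type libraries did not overlap in CPM for any of the 10, as was so for 63.5% of all tested genes. No receptor gene changed by as much as Bfar or the strongest genes in the table: 4.52% of tested genes were called with a log2 change at least as large in size as that of Tnfrsf9. With other tools and settings, 7 of the 10 receptor genes passed in DESeq2, against 14.3% of all genes it tested, and 8 passed in limma-voom, against 26.6%. On log2(FPKM + 0.1) and log2(FPKM + 1), 7 passed, against 18.6% and 19% of all genes, and without a filter on low counts 7 passed, against 11.1%. With upper-quartile factors 7 passed, against 26.2%, with RLE factors 8, against 26.8%, and with a replicate block 8, against 31.2%. Without knockout replicate 1 or 2, 7 and 6 passed, against 14.6% and 11.1%, and without wild-type replicate 1 or 2, 8 and 7 passed, against 16.5% and 18.1%.

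**Figure D1:**
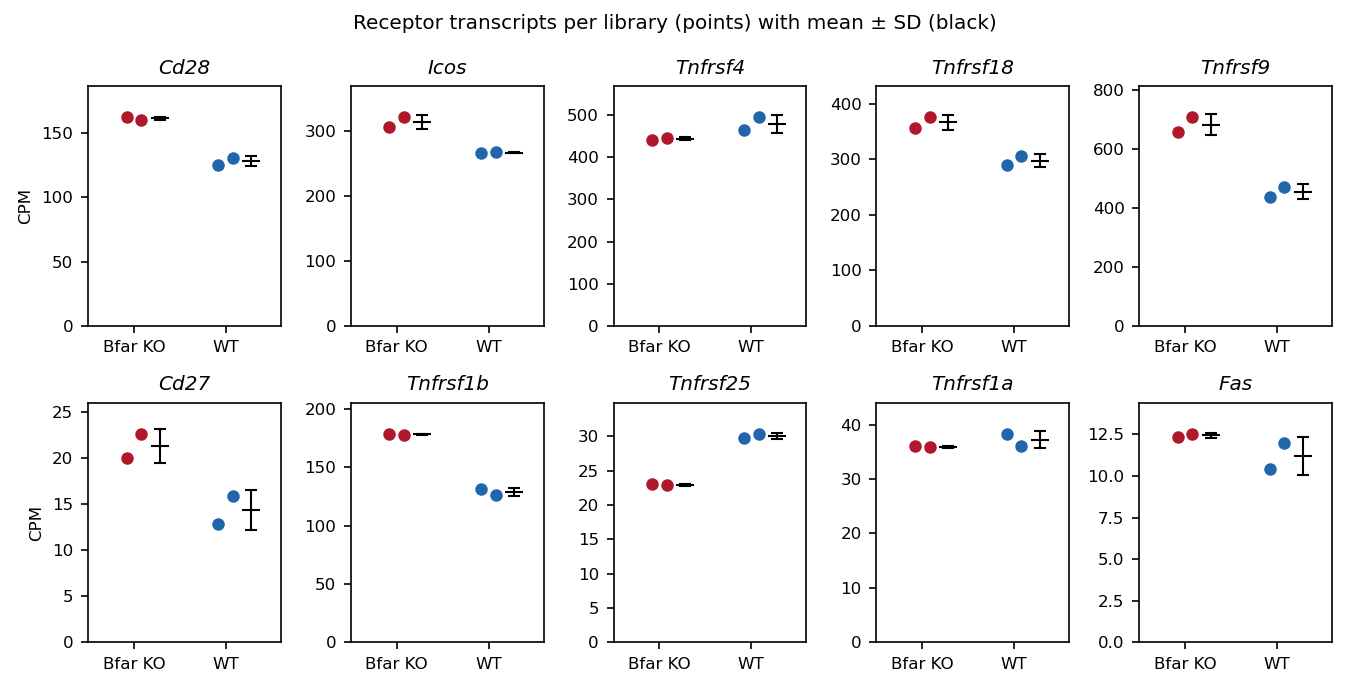
CPM of the 10 receptor genes, with knockout libraries in red and wild-type libraries in blue (n = 2 each); black marks give mean ± SD and each axis starts at 0. The knockout points lie above the wild-type points for Cd28, Icos, Tnfrsf18, Tnfrsf9, Cd27 and Tnfrsf1b and below them for Tnfrsf4 and Tnfrsf25. For Tnfrsf1a and Fas the nearest points of the groups almost touch.

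Both costimulators of the CD28 family rose. Cd28 (chromosome 1, 60746388 to 60773359, GRCm38) had 162 and 160.4 CPM in knockout cells, against 125 and 131 CPM in wild-type cells. The gap between groups was larger than the spread within either. The log2 ratio of knockout to wild type was 0.34 ± 0.04 (SE; edgeR adjusted p = 3.21e-05), a rise of 26.2%. Icos, which lies 187 kilobases downstream (chromosome 1, 60960773 to 61000322), had 306 and 320.4 CPM in knockout cells, against 266 CPM in each wild-type library. The wild-type values were almost equal, and both knockout values stood above them. Icos rose by 17.7% (log2 0.23 ± 0.04; edgeR adjusted p = 0.000354).

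Tnfrsf9 encodes 4-1BB, a receptor induced by activation that recruits TRAF adaptors. It had 657 and 708 CPM in knockout cells, against 439 and 473 CPM in wild-type cells. This was the smallest adjusted p of the 10 genes and, with Cd27, the largest change. The log2 fold change was 0.58 ± 0.04 (SE; edgeR adjusted p = 2.48e-07), a rise of 49.7% with a 95% interval of 40.2% to 59.8%. The gene lies on chromosome 4, 150920155 to 150946104.

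The sequence before a start of Tnfrsf9 is shown because this gene rose most clearly and its windows held matches to more of the motifs searched than any other receptor gene. RefSeq (GRCm38.p6) gives 2 starts. The stretch before the downstream one, which is at 150927999, was cut where an exon annotated in GENCODE M21 begins. It lies on the plus strand of chr4:150927749-150927917 and reads as follows, with a match to the STAT motif in capitals.
Tnfrsf9 upstream: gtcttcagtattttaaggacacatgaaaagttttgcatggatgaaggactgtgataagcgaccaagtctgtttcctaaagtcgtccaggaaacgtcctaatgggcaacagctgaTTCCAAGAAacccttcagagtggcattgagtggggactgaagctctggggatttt
Nearer to that start, and past the first base of that exon, lie 2 overlapping matches to the NF-kB consensus. They are in capitals in the plus strand of chr4:150927947-150927976.
Tnfrsf9 NF-kB match: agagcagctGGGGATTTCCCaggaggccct

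The adjacent genes Tnfrsf18 and Tnfrsf4 went in opposite directions. Tnfrsf4, which encodes OX40, ends 9708 bases before Tnfrsf18, which encodes GITR, on the same strand of chromosome 4. Tnfrsf18 (156026322 to 156028894) had 357 and 375 CPM in knockout cells, against 289 and 305 CPM in wild-type cells. The lowest knockout value stood well above the highest wild-type value. Tnfrsf18 rose by 23.1% (log2 0.30 ± 0.04, SE; edgeR adjusted p = 7.77e-05).

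Tnfrsf4 (156013595 to 156016613) had 441 and 446 CPM in knockout cells, against 464 and 494 CPM in wild-type cells. The knockout values were nearly equal, and the nearer wild-type value was close to them. Its log2 fold change was -0.11 ± 0.04 (SE; edgeR adjusted p = 0.0456), with a 95% interval of -12.5% to -1.94%. The call was lost under 8 of 12 alternative settings; over the 12, adjusted p ran from 0.0118 to 0.385. Without wild-type replicate 2 the log2 fold change was -0.06 (adjusted p = 0.385), and without knockout replicate 1 or 2 the adjusted p was 0.212 and 0.17. The fall of Tnfrsf4 was the least stable of the calls, whereas those for Tnfrsf18, Tnfrsf9, Tnfrsf1b, Tnfrsf25, Cd28 and Icos passed in all 12.

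GENCODE M21 annotates an antisense gene, Gm16008, whose exons cover 27.2% of the exon bases of Tnfrsf18. The sources used here do not give the strand setting of the counting, so reads from that gene and from Tnfrsf18 could not be told apart, and the value of Tnfrsf18 is uncertain to that degree. Cd27 overlaps the microRNA gene Mir8113 over 5.54% of its exon bases and shares 4.56% of its 31-base words with transcripts of other genes, mainly Kcnj15, so its value is uncertain to that degree. For the other 8 genes no exon of another gene overlapped, and at most 0.42% of their 31-base words occurred in transcripts of another gene. All words were compared in the direction of the transcript only, so words shared with an antisense transcript were not counted.

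Cd27, a receptor of naive and memory T cells that favours survival, was scarce in these cultures. It had 20.01 and 22.6 CPM in knockout cells, against 12.9 and 15.9 CPM in wild-type cells. The groups did not overlap, but the replicates of each stood further apart, for their level, than those of the abundant receptors. Cd27 rose by 48.2% (log2 0.57 ± 0.11, SE; edgeR adjusted p = 0.000987), with a wide 95% interval of 26.9% to 73.1%. The call was lost without knockout replicate 2 (log2 0.48, adjusted p = 0.0755).

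The 2 receptors for TNF differed from each other. Tnfrsf1b encodes TNFR2, which lacks a death domain and signals through TRAF2. It had 179 and 178 CPM in knockout cells, against 132 and 127 CPM in wild-type cells. The groups were far apart compared with the spread within them, and the log2 fold change was 0.47 ± 0.04 (SE; edgeR adjusted p = 1.03e-06). Tnfrsf1a encodes TNFR1, the death domain receptor for the same ligand. It had 36.02 and 35.8 CPM in knockout cells, against 38.3 and 36.1 CPM in wild-type cells. The nearest values of the groups were almost equal, and the log2 fold change was -0.05 ± 0.06 (edgeR adjusted p = 0.594). The 95% interval of Tnfrsf1a ran from -11.9% to 5.79%, and that of Tnfrsf1b from 30.1% to 46.6%. In FPKM, which is scaled per length, Tnfrsf1b stood at 2.19 times the level of Tnfrsf1a in each knockout library, against 1.51 and 1.54 times in the wild-type libraries.

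The sequence before the RefSeq start of Tnfrsf1b, on the minus strand at chr4:145246871-145247120, is shown because this gene had the second smallest adjusted p. The capitals mark a match to the STAT motif.
Tnfrsf1b upstream: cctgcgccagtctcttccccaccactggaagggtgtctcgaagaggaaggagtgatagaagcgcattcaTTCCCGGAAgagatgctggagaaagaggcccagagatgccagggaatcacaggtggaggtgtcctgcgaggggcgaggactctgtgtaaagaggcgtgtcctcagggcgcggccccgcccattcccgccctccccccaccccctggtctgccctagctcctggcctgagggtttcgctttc

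The other death domain receptors also differed. Tnfrsf25 encodes DR3, a receptor that costimulates T cells on binding TL1A. It had 23.0 and 22.9 CPM in knockout cells, against 29.7 and 30.4 CPM in wild-type cells. Replicates were nearly equal within each group, and Tnfrsf25 fell by 23.7% (log2 -0.39 ± 0.07, SE; edgeR adjusted p = 0.00084). Fas, the receptor through which activated T cells are eliminated, had 12.3 and 12.5 CPM in knockout cells, against 10.4 and 12 CPM in wild-type cells. The groups did not overlap, but wild-type replicate 2 nearly reached the knockout values. The log2 difference of Fas was 0.15 ± 0.11 (edgeR adjusted p = 0.321). Its 95% interval of -5.08% to 29.9% includes the 26.2% seen for Cd28, and the log2 difference was 0.05 without wild-type replicate 1 and 0.26 without wild-type replicate 2.

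**Figure D2:**
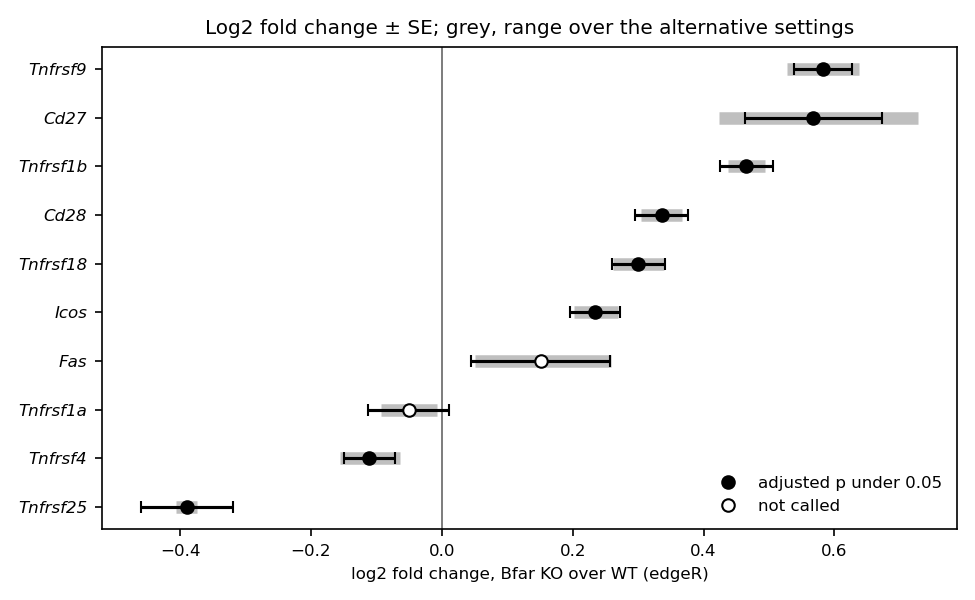
Log2 fold change of each receptor gene, knockout over wild type, with its SE from edgeR; filled points passed an adjusted p of 0.05 and grey bars span the values over 12 alternative settings. The points run from -0.39 for Tnfrsf25 to 0.58 for Tnfrsf9, and no grey bar crosses 0.

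Levels between genes were compared in deposited FPKM. Tnfrsf4, Tnfrsf18 and Tnfrsf9 stood far above the rest and together made up 82.9% to 83.6% of the summed FPKM of the 10 genes in every library. Tnfrsf4 was highest, with 387 and 391 FPKM in knockout cells and 408 and 435 FPKM in wild-type cells. Tnfrsf18 came next, with 367 and 387 FPKM in knockout cells and 294 and 309.96 FPKM in wild-type cells. Tnfrsf9 followed, with 315 and 338 FPKM in knockout cells and 210.2 and 227 FPKM in wild-type cells. The distance between these genes was smaller in knockout cells: Tnfrsf9 stood at 0.812 and 0.866 times the FPKM of Tnfrsf4 in knockout libraries, against 0.515 and 0.521 times in wild-type libraries. For Tnfrsf18 over Tnfrsf4 the ratios were 0.946 and 0.99 in knockout libraries, against 0.72 and 0.713 in wild-type libraries. In knockout cells the lowest Tnfrsf4 value and the highest Tnfrsf18 value nearly met.

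Below these came Icos, with 92.8 and 97.0 FPKM in knockout cells and 80.9 and 81.0 FPKM in wild-type cells. Cd28 averaged 37.0 ± 0.354 FPKM in knockout cells and 29.4 ± 0.884 FPKM in wild-type cells, and Tnfrsf1b averaged 35.8 ± 0.219 FPKM in knockout cells and 26.1 ± 0.735 FPKM in wild-type cells (SD, n = 2 each). Cd28 and Tnfrsf1b were thus neighbours in both genotypes, without overlap. At the low end, Tnfrsf1a stood above Tnfrsf25 in knockout cells, with means of 16.4 and 14.02 FPKM. In wild-type cells Tnfrsf25 stood above Tnfrsf1a, with means of 18.5 and 17.0 FPKM. The 2 lowest were Cd27, with means of 13.6 FPKM in knockout cells and 9.27 FPKM in wild-type cells, and Fas, with 8.61 FPKM in knockout cells and 7.91 FPKM in wild-type cells. Tnfrsf25 and Cd27 overlapped in knockout cells, and Cd27 and Fas overlapped in wild-type cells. No other neighbours in the order overlapped.

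**Figure D3:**
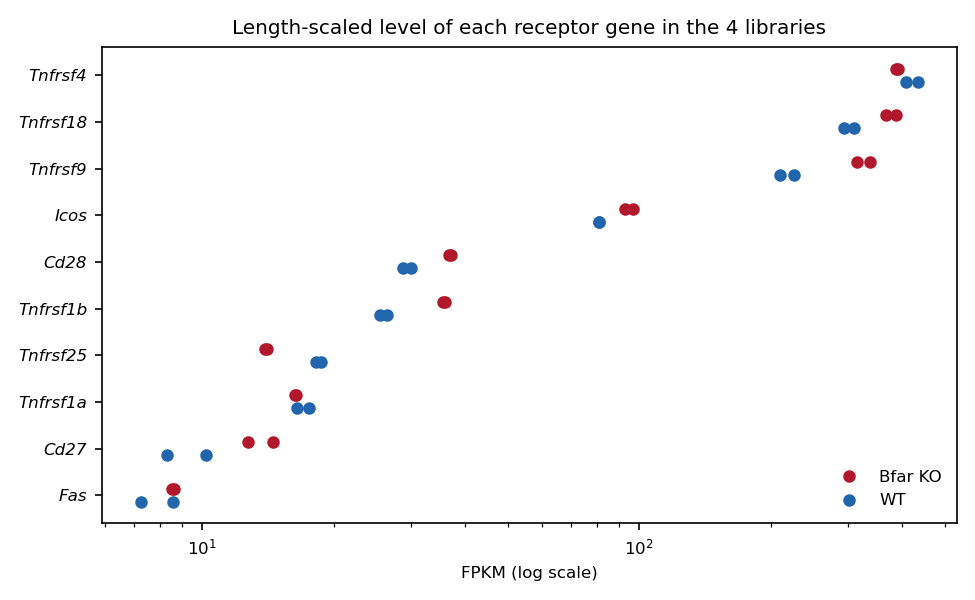
Deposited FPKM of each receptor gene on a log scale, 1 point per library, knockout in red above wild type in blue. Tnfrsf4, Tnfrsf18 and Tnfrsf9 lie at 210.2 FPKM or more in every library, Icos between 80.9 and 97.0, and the other 6 genes at 37.2 FPKM or less.

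The tables also list a gene length per library, which for genes with several transcripts differs between libraries and so reads out transcript use. Of the 10 genes, 5 have several listed transcripts. Tnfrsf18 was listed with 992 and 987 bases in knockout cells, against 1006 bases in each wild-type library. The groups did not overlap, and the mean was lower by 1.62% in knockout cells, a difference of -16.3 bases that was between -18.8 and -13.7 bases when any 1 library was left out. Among 3741 tested genes whose listed length varied, 33.9% did not overlap between genotypes and 7.46% did so with a difference at least as large in percent as that of Tnfrsf18. An exact two-sided permutation test of 2 against 2 libraries cannot go below 0.333, so no test is given.

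Tnfrsf18 has 2 listed transcripts. In GENCODE M21 the shorter one lacks exon 4, of 203 bases, and keeps 396 coding bases in place of 684. The transcripts have 1189 and 804 bases, so they also differ outside exon 4, and the listed length does not read out exon 4 alone. That exon is coding throughout and lies on the plus strand at chr4:156028221-156028423. It is shown because it is the exon that the shorter transcript lacks.
Tnfrsf18 exon 4: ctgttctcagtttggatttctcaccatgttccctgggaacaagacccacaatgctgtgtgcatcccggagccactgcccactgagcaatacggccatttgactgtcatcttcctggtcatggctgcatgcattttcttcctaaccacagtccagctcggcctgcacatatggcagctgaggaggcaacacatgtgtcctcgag
The FPKM of Tnfrsf18 is divided by the listed length, and part of its difference in FPKM therefore follows from that length, while its CPM does not use it.

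Other listed lengths moved less or less evenly. Tnfrsf9, with 3 transcripts, was listed with 2086 and 2088 bases in knockout cells, against 2092 and 2090.3 bases in wild-type cells. Tnfrsf25 had 1639.8 and 1641 bases in knockout cells, against 1637 and 1636 bases in wild-type cells. These groups did not overlap, but the differences were 0.199% and 0.224% of the length. For Fas the 2 knockout libraries (1451 and 1456 bases) and wild-type replicate 1 (1449 bases) were alike, and only wild-type replicate 2 (1412 bases) stood apart. Cd27 overlapped between groups.

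**Figure D4:**
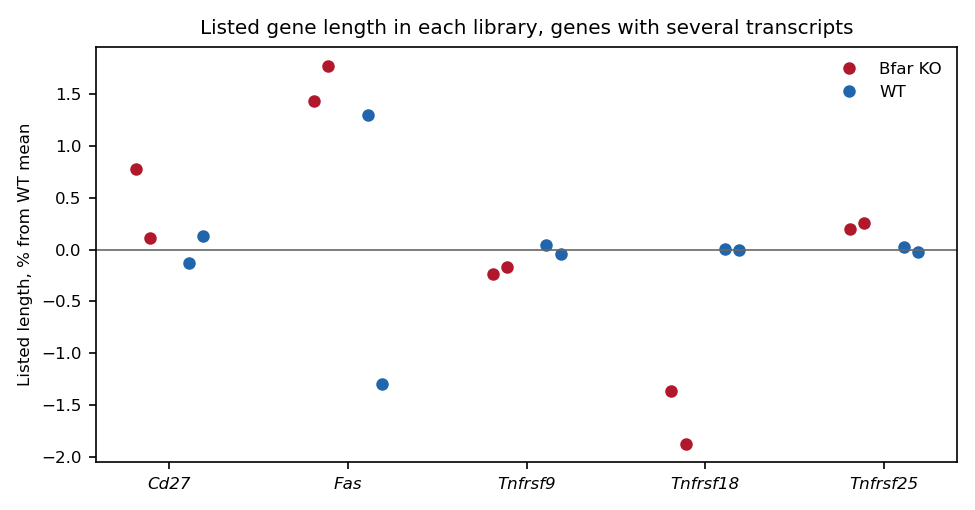
Listed length of the 5 receptor genes with several transcripts, as percent difference from the wild-type mean, 1 point per library, knockout in red left of wild type in blue. The Tnfrsf18 points of both knockout libraries lie below those of wild type, with a mean difference of -1.62%, and the points of Tnfrsf9 and Tnfrsf25 lie close to the wild-type mean.

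Promoter windows of 300 bases, from 250 before to 50 after each RefSeq start, were found for 8 of the 10 genes, 10 windows in all. They were searched on both strands for the NF-kB consensus, the AP-1 motif TGANTCA and the STAT motif TTCNNNGAA. The STAT motif occurred in 6 of 10 windows, in Tnfrsf1b, Tnfrsf9, Tnfrsf25, Tnfrsf18, Tnfrsf1a and Fas, against 8.3% of all 32851 windows. These include genes that rose, a gene that fell and both genes that did not pass the test. The NF-kB consensus occurred in windows of Tnfrsf9 and Tnfrsf25, against 8.46% of all windows, and the AP-1 motif in those of Tnfrsf9 and Fas, against 7.81%. In the Tnfrsf9 window the NF-kB matches began 43 and 42 bases before the start and the AP-1 match TGAGTCA began 15 bases before it; none of the motif matches overlapped a match to another motif there. A match is a description of the letters only.

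Ligands of these receptors were described next, as a list of 11 genes of which 8 were expressed highly enough to test. Of these, 2 rose and 2 fell, and the median log2 fold change was -0.28. Over all tested genes 13.6% rose and 13.2% fell, with a median of -0.0024. Fasl, the ligand of Fas, had 34.8 and 35.6 CPM in knockout cells, against 19.2 and 18.7 CPM in wild-type cells, a log2 rise of 0.90 ± 0.07 (edgeR adjusted p = 4.14e-07), while Fas itself did not pass. Both ligands of TNFR1 and TNFR2 fell. Lta, lymphotoxin alpha, had 949 and 919 CPM in knockout cells, against 1261 and 1216 CPM in wild-type cells (log2 -0.41 ± 0.03; edgeR adjusted p = 9.09e-07). Tnf had 54.2 and 51.2 CPM in knockout cells, against 66.7 and 67.3 CPM in wild-type cells (log2 -0.34 ± 0.05). Tnfrsf1b and its ligands thus went in opposite directions.

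Cd80, a ligand of CD28 that T cells make at a low level, had 7.31 and 6.63 CPM in knockout cells, against 4.34 and 4.81 CPM in wild-type cells (log2 0.61 ± 0.14; edgeR adjusted p = 0.00572). Its adjusted p was 0.0661 without knockout replicate 1, 0.054 without wild-type replicate 1 and 0.0814 in DESeq2. Cd86, the other ligand of CD28, had 0.57 and 0.369 CPM in knockout cells, against 0.807 and 0.86 CPM in wild-type cells, and did not pass (log2 -0.82; edgeR adjusted p = 0.171). The ligands of CD27, OX40 and 4-1BB did not pass: Cd70 had a log2 difference of -0.52 (edgeR adjusted p = 0.0701), Tnfsf4 of 0.15 (adjusted p = 0.192) and Tnfsf9 of -0.22 (adjusted p = 0.134). Icosl and Tnfsf15, the ligands of ICOS and DR3, had at most 8 counts in any library, and Tnfsf18, the ligand of GITR, was listed in none. Among 10 other TNF family ligands, 7 were tested. Of these, 1 rose and 1 fell, against 13.6% and 13.2% of all tested genes. Tnfsf10, which encodes TRAIL, rose (log2 0.32 ± 0.05, edgeR adjusted p = 0.000143) and Ltb fell (log2 -0.20 ± 0.04, edgeR adjusted p = 0.00425). The call for Ltb was lost without knockout replicate 1 (0.0668), knockout replicate 2 (0.0783) or wild-type replicate 1 (0.0802). Tnfsf13b, at -0.36 (edgeR adjusted p = 0.0553), and Tnfsf11, at -0.11 (edgeR adjusted p = 0.107), did not pass. Both depended on the wild-type libraries: Tnfsf13b was at -0.51 (adjusted p = 0.0271) without wild-type replicate 2 and -0.20 without replicate 1. Tnfsf11 was at -0.19 (adjusted p = 0.0276) without wild-type replicate 2 and -0.037 without replicate 1. With a replicate block both passed (Tnfsf13b 0.0347, Tnfsf11 0.0435).

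The inhibitory members of the CD28 family split. Ctla4, which competes with CD28 for its ligands and lies between Cd28 and Icos on chromosome 1, had 517 and 555 CPM in knockout cells, against 316 and 334 CPM in wild-type cells. Its rise (log2 0.72 ± 0.04; edgeR adjusted p = 1.52e-08) was larger than those of Cd28 and Icos, although the difference between the genes was not tested. Pdcd1, which encodes PD-1, fell (log2 -0.29 ± 0.05; edgeR adjusted p = 0.000796). Btla rose by 0.14, a call lost without knockout replicate 1 (adjusted p = 0.0823), knockout replicate 2 (0.285) or wild-type replicate 1 (0.329), in DESeq2 (0.143), with no filter (0.142) and on log2(FPKM + 0.1) and log2(FPKM + 1) (0.119 and 0.117). Without wild-type replicate 1 its log2 difference was 0.089. Of 20 other TNF receptor genes, 17 were tested. In this list 2 rose and 1 fell, against 13.6% and 13.2% of all tested genes, with a median log2 fold change of -0.14. Tnfrsf14, which encodes the BTLA ligand HVEM, had 8.60 and 9.85 CPM in knockout cells, against 5.55 and 5.31 CPM in wild-type cells (log2 0.76 ± 0.13; edgeR adjusted p = 0.000541). Tnfrsf8, which encodes CD30, rose by 0.53 and Cd40 fell by 0.81 on the log2 scale. These calls were lost without knockout replicate 2 (Tnfrsf8, adjusted p = 0.191) or wild-type replicate 2 (Tnfrsf8, 0.0962), and without knockout replicate 1 (Cd40, 0.0564). Cd40 was also lost in DESeq2 (0.0684), and Tnfrsf8 with no filter (0.0971) and on log2(FPKM + 0.1) and log2(FPKM + 1) (0.0629 and 0.0605). Tnfrsf13b did not pass, with a log2 difference of 0.17 (edgeR adjusted p = 0.0545). Without wild-type replicate 1 it was 0.24 and passed (adjusted p = 0.0326), and without wild-type replicate 2 it was 0.094. Tnfrsf13b also passed with upper-quartile factors (0.0392) and with a replicate block (0.0241).

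Downstream of the receptors, the list of CD28 and ICOS proximal signalling had 21 genes, all tested. Of these, 9 rose and 1 fell, against 13.6% and 13.2% of all tested genes, with a median log2 fold change of 0.11. Cblb, a ubiquitin ligase that restrains T cells activated without CD28, had 228 and 236 CPM in knockout cells, against 138 and 147 CPM in wild-type cells (log2 0.70 ± 0.04; edgeR adjusted p = 2.16e-08). Malt1, of the complex that links CD28 to NF-kB, rose by 0.26 ± 0.04 (edgeR adjusted p = 7.33e-05). Several of the genes that rose are inhibitors, among them Cblb, Cbl and Rc3h2, whose product Roquin-2 represses Icos mRNA. Pdk1, which rose by 0.27, encodes pyruvate dehydrogenase kinase, a metabolic enzyme and no part of the CD28 pathway.

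Among 13 TRAF and IAP adaptors 3 rose and 2 fell, against 13.6% and 13.2% of all tested genes. The median log2 fold change was near 0. Traf1, an NF-kB target that binds several of these receptors, rose by 0.26 ± 0.05 (edgeR adjusted p = 0.00163), and 0.20 without knockout replicate 2 (adjusted p = 0.061). Traf3, an inhibitor of the noncanonical NF-kB pathway, fell by 0.20 ± 0.05 (edgeR adjusted p = 0.00481), a call lost without knockout replicate 2 (0.093) or wild-type replicate 1 (0.0541) and on log2(FPKM + 0.1) and log2(FPKM + 1) (0.0533 and 0.0543). Traf7 fell by 0.21 ± 0.04 (edgeR adjusted p = 0.00149). Birc2, which encodes cIAP1, rose by 0.25, a call lost without knockout replicate 1 (adjusted p = 0.0611), knockout replicate 2 (0.118) or wild-type replicate 1 (0.118), in DESeq2 (0.105) and with no filter (0.055).

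Among 13 genes of death domain signalling none rose and 2 fell, against 13.6% and 13.2% of all tested genes. Bid, which carries the death signal to mitochondria, had 10.8 and 11.1 CPM in knockout cells, against 14.5 and 15.9 CPM in wild-type cells (log2 -0.47 ± 0.10; edgeR adjusted p = 0.00254, and 0.0509 without knockout replicate 1). Ripk1, a kinase recruited to TNFR1, fell by 0.18 (edgeR adjusted p = 0.0151), a call lost without knockout replicate 1 (0.166) or wild-type replicate 1 (0.119), in DESeq2 (0.111), with no filter (0.0809) and on log2(FPKM + 0.1) and log2(FPKM + 1) (0.0702 and 0.0715). Cradd had a log2 difference of -0.23 (edgeR adjusted p = 0.0616) and did not pass, but was at -0.35 (adjusted p = 0.0115) without wild-type replicate 2 and -0.099 without wild-type replicate 1. With a replicate block Cradd passed (adjusted p = 0.0217).

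NF-kB subunits and inhibitors went both ways, with 3 of 18 up and 4 down, against 13.6% and 13.2% of all tested genes. The median was -0.07. Nfkbid, a nuclear IkB protein, had 36.2 and 30.3 CPM in knockout cells, against 51.2 and 47.9 CPM in wild-type cells (log2 -0.57 ± 0.07; edgeR adjusted p = 5.26e-05). Tnfaip3, which encodes the feedback inhibitor A20, rose by 0.31 ± 0.04 (edgeR adjusted p = 0.00011) and Ikbkg, which encodes NEMO, by 0.38 ± 0.06 (edgeR adjusted p = 0.00018). Relb, a subunit of the noncanonical pathway, fell by 0.20 ± 0.05 (edgeR adjusted p = 0.00514), a call lost without knockout replicate 2 (0.0664) or wild-type replicate 2 (0.0526) and in DESeq2 (0.0606).

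**Figure D5:**
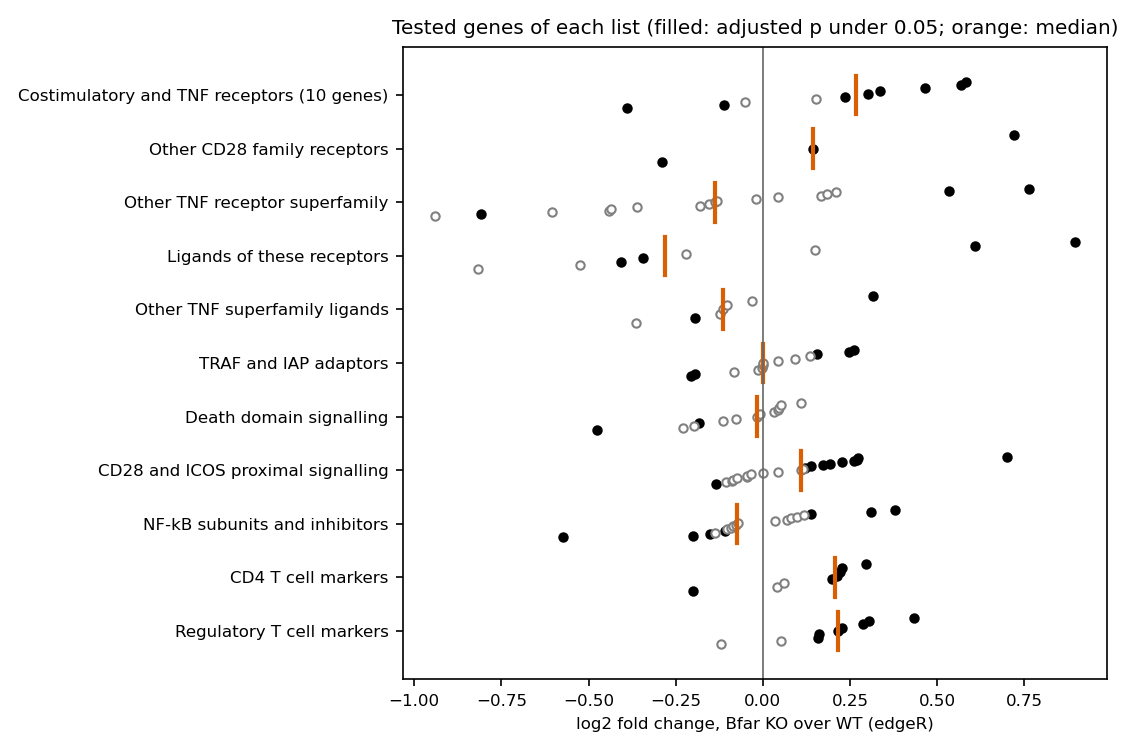
Log2 fold change, knockout over wild type, of each tested gene by list; filled points passed an adjusted p of 0.05 and the orange bar is the list's median. The 10 receptor genes have a median of 0.27, their ligands one of -0.28, and the adaptor and death domain lists lie near 0.

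OX40, GITR and 4-1BB are also abundant on regulatory T cells. Tnfrsf18 and Tnfrsf9 rose, as did most of the markers listed for those cells, whereas Tnfrsf4 fell slightly (log2 -0.11). Of 9 such markers 7 rose and none fell, against 13.6% and 13.2% of all tested genes, with a median log2 fold change of 0.21. The other markers, Nrp1 (log2 -0.12, edgeR adjusted p = 0.0553) and Lrrc32 (log2 0.05, edgeR adjusted p = 0.59), did not pass. The summed level of the 9 markers was 4768 and 4671 CPM in knockout libraries and 4285 and 4124 CPM in wild-type libraries. Foxp3 had 371 and 347 CPM in knockout cells, against 321 and 298 CPM in wild-type cells (log2 0.21 ± 0.04; edgeR adjusted p = 0.00217, 0.0805 without knockout replicate 1 and 0.0508 with no filter). Ikzf4 rose by 0.30 ± 0.04 (edgeR adjusted p = 5.49e-05) and Gpr83 by 0.43 ± 0.06 (edgeR adjusted p = 0.000105). Il2ra, which activated T cells also express, rose by 0.16 ± 0.03 (edgeR adjusted p = 0.00209). In these bulk libraries, more cells of a type and more RNA per cell cannot be told apart, and the part of regulatory T cells in the receptor values was not tested.

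General T cell markers also moved: 5 of 8 rose and 1 fell, against 13.6% and 13.2% of all tested genes. Their median log2 fold change was 0.21. Cd247 rose by 0.29 ± 0.04, Cd4 by 0.23 ± 0.04 and Cd2 by 0.22 ± 0.04, while Cd5 fell by 0.20 ± 0.04. Markers of other cells were low. Summed B cell markers lay at 5.55 and 5.42 CPM in knockout libraries and 6.36 and 6.93 CPM in wild-type libraries, with 3 of 6 genes tested and none called; Cd79b, at 3.00 to 4.71 CPM, was the highest. Summed myeloid and dendritic cell markers lay at 3.89 and 3.27 CPM in knockout libraries and 4.09 and 5.57 CPM in wild-type libraries, with 2 of 9 genes tested, none called, and Lyz2 and Csf1r listed in no library. CD8 and NK cell markers summed to 13.0 and 14.4 CPM in knockout libraries and 14.7 and 14.5 CPM in wild-type libraries, mostly Cd8b1 at 8.50 and 9.53 CPM in knockout cells and 9.44 and 9.82 CPM in wild-type cells, and none of the 3 tested genes was called. Of 5 mast cell and basophil markers only Kit was tested. It had 3.58 and 3.32 CPM in knockout cells, against 1.51 and 1.32 CPM in wild-type cells (log2 1.28 ± 0.22; edgeR adjusted p = 0.000608), while Fcer1a, Cpa3 and Mcpt8 were listed in no library.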

How the data were processed

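Total RNA of 4 cultures went through Hiseq sequencing, per the labels' protocols. The submitters' processing notes name Bowtie, RSEM and the build GRCm38 (mm10). The sources used here do not give versions, annotation release or strand setting. Each deposited table, per the file headers, lists expected counts, FPKM and a length for every gene. The authors' FPKM divides by length and depth. Genes missing from a table were taken as 0.

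Groups were taken from the sample titles. Expected counts were rounded and tested over all genes with edgeR 4.0.16 in R 4.3.3 (quasi-likelihood, two-sided, TMM, filterByExpr with a minimum count of 10 and minimum total of 15, Benjamini-Hochberg adjustment at 0.05), genotype being the only factor. The SE is the absolute log2 fold change divided by the square root of F, and 95% intervals use its t distribution. CPM uses TMM-scaled library sizes; 3 counts equal 0.152 to 0.157 CPM. Alternatives were upper-quartile and RLE factors, DESeq2 1.42.0, limma-voom (limma 3.58.1), no filter, log2(FPKM + 0.1) and log2(FPKM + 1) with limma, a replicate block, and leaving out each library. The edgeR step was tested on simulated data. No library was a copy of another, since chi-square divided by its degrees of freedom was 2.15 between wild-type libraries, 2.47 between knockout libraries and 13.4 to 16.6 across genotypes.

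The receptor genes, lists and motifs were chosen with earlier results of these data known. Of each other list, up to 4 tested genes lowest in adjusted p, and up to 3 markers of other cells highest in CPM, were named. Cd3e, Cd3g, Cd70, Cd86, Tnfsf4, Tnfsf9, Cbl, Rc3h2 and some genes at or near 0 were named besides, for their role. Nrp1 and Lrrc32 were named as the regulatory T cell markers that did not pass. Coordinates and promoter sequences are from RefSeq (GRCm38.p6), and exons and transcript sequences from GENCODE M21 (GRCm38). A few genes that this rule would name are not reported here.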

Additional observations from a re-analysis of the deposited data

How the results depend on the processing

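Across 12 alternative settings, between 6 and 8 of the 10 receptor genes passed, 5 or 6 of them upward. The number that fell, 2 in the main analysis, was 1 with upper-quartile factors, DESeq2, no filter, log2(FPKM + 0.1) or log2(FPKM + 1), and 1 to 2 when any library was left out; Tnfrsf4 was the gene lost each time, with adjusted p between 0.0118 and 0.385 over the settings. In the 8 lists of related genes, which hold 109 genes, not all tested, 36 genes passed, 22 up and 14 down. Over all tested genes 26.8% passed, 13.6% up and 13.2% down. With DESeq2 the counts were 22, 14 and 8, where 14.3% of all genes it tested passed. Leaving out a library gave 20 to 31 in all, 12 to 17 up and 8 to 14 down. Over all genes 3398 passed, against 1707 with DESeq2, 1928 with no filter and 1441 to 2355 with a library left out. The difference in listed length of Tnfrsf18 was -18.82 to -13.72 bases with a library left out, an alternative chosen after seeing the data. The order of the receptor genes by FPKM was the same by TPM, but both scale the same counts by length, so it could hardly have differed. Deviations of same-numbered libraries had a correlation of 0.0359 over all tested genes. Counting noise can also bring this value near 0, so it cannot show whether replicate numbers paired the libraries. With the replicate block 8 receptor genes, 44 list genes and 3952 genes in all passed. Of 707 values of single named genes under the alternatives, 641 kept their direction and side of the threshold and 1 reversed: Zbtb46, whose log2 difference lay between -0.58 and 0.066 with a library left out. Causes of these changes were not tested. Depth limits the scarce genes most: Fas, with 206 to 238 counts per library, had an SE of 0.11.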
